A study of Mus musculus with 22 samples.

Results

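Transcripts of 5 serpin genes, Serpinh1, Serpinf1, Serpine2, Serpinb6a and Serpinb9, were followed across mouse E14 embryonic stem cells (ESCs) exposed to compounds that act on chromatin. Genes were taken by symbol, and all 5 were found among the 18487 genes of the deposited expression table, which holds 25 serpin genes in all. Serpinh1 and Serpinf1 were chosen by their own values here, which were low with several compounds relative to NC, so they are described and carry no test. No such reason was recorded for the other 3 genes. RNA-seq of polyA-enriched RNA gave 22 libraries in 11 groups, 2 per group. NC is the only group whose label names no compound and served as the reference. The other groups were treated with Bromosporine (a bromodomain ligand), Valproate (a histone deacetylase inhibitor), CPTH2 or Garcinol (histone acetyltransferase inhibitors), or Chaetocin and UNC0379 (inhibitors of histone lysine methyltransferases). The remaining 4 treatments were MS023 (an inhibitor of type I arginine methyltransferases), DZNep (which blocks hydrolysis of S-adenosylhomocysteine), IOX1 (an inhibitor of 2-oxoglutarate oxygenases) and a compound labelled only OICR. The groups share the E14 line and carry no engineered allele in the labels, which give neither dose nor exposure time, nor say whether the 2 libraries of a group came from separate cultures, so that p-values measure the spread between these libraries.

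Serpins are a family of proteins with 1 shared fold. Most act as suicide inhibitors, in which a protease cuts an exposed loop of the serpin and is then trapped and distorted. Others have lost inhibitory activity. SERPINH1 (HSP47) is such a member, a heat-inducible chaperone of the endoplasmic reticulum that binds procollagen, and SERPINF1 (PEDF) is a secreted non-inhibitory serpin that restrains vessel growth and binds collagen. SERPINE2 (protease nexin-1) is secreted and inhibits thrombin and the plasminogen activators. SERPINB6A and SERPINB9 remain inside cells, where they inhibit cathepsin G and granzyme B, respectively. Early embryonic cells lay down basement membrane, and collagen folding depends on SERPINH1.

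Values are normalized read counts that had been forced to 1 common distribution, so that the median was 409 and the maximum 221616 in all libraries and library totals (38403767 to 38419709) do not show depth. Depth per library is unknown here, and no detection limit was derived. In bulk RNA, fewer cells of a type and less RNA per cell cannot be told apart. All 20 listed ESC markers were above 0 in all libraries, Pou5f1 between 25663 and 39262, and the summed level of this list ran from 257057 (MS023 replicate 2) to 373981 (DZNep replicate 2). Of 14 fibroblast markers in the table, Dcn was listed at 0 in all libraries. Both NC libraries held 0 for 3 of the 14 markers, namely Dcn, Lum and Prrx1. The rest were above 0 in at least 1 NC library, from S100a4 at 0 and 1 to Fn1 at the maximum of the table. Between these lay Postn at 474 and 559, Fbln1 at 2733 and 2186 and Vim at 8931 and 13630. Of 13 primitive and parietal endoderm markers in the table, all were above 0 in both NC libraries, from Thbd at 4 and 3 through Gata4 at 156 and 154 and Gata6 at 192 and 115 to the laminin chain Lamc1 at 53841 and 49312.

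Genomic positions are from GENCODE M21 on mm10. Serpinh1 (ENSMUSG00000070436) lies on chromosome 7 (99345376 to 99353239, minus strand) and Serpinf1 (ENSMUSG00000000753) on chromosome 11 (75409769 to 75422701, minus strand). Serpine2 (ENSMUSG00000026249) is on chromosome 1 (79794197 to 79861180, minus strand). Serpinb6a (ENSMUSG00000060147, 33917918 to 34002794, minus strand) and Serpinb9 (ENSMUSG00000045827, 33003250 to 33017957, plus strand) belong to the serpin cluster of chromosome 13. All 5 are protein coding. To ask how far reads of 1 gene could be assigned to another, the longest transcript of each gene was cut into all 31-base stretches. None of those of Serpinh1 or Serpinf1 (0%) occurred in transcripts of other genes, against 3.39% for Serpine2, 3.89% for Serpinb6a and 4.97% for Serpinb9. Serpinb6a exons overlap those of 1110046J04Rik, Nqo2 and Ripk1 on the opposite strand, and without strand information such reads cannot be told apart.

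Sequence upstream of the RefSeq start site is shown for the members with the largest differences between groups. Serpinh1 and Serpinf1 were both low with the same 4 compounds, and Serpine2 was high with DZNep and Valproate. The stretches are from RefSeq (GRCm38.p6, which is mm10), run 5′ to 3′ towards the start site and end before the first exon of a protein-coding gene. They cover chr7:99353240-99353489 (Serpinh1), chr11:75422702-75422873 (Serpinf1) and chr1:79858697-79858915 (Serpine2), all on the minus strand. The Serpine2 stretch lies inside the GENCODE span of that gene, which begins further upstream, at 79861180. Capitals mark the GC box letters GGGCGG in the Serpinh1 and Serpine2 stretches. In the Serpinf1 stretch they mark CCAAT, which binds NF-Y.
Serpinh1: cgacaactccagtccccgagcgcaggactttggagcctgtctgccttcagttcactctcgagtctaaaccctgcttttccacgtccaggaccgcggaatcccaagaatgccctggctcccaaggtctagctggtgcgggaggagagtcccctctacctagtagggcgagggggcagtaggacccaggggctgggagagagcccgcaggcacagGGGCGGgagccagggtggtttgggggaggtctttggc
Serpinf1: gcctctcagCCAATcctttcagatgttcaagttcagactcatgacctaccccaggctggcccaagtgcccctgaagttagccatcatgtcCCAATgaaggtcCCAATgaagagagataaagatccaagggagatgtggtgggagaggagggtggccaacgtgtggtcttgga
Serpine2: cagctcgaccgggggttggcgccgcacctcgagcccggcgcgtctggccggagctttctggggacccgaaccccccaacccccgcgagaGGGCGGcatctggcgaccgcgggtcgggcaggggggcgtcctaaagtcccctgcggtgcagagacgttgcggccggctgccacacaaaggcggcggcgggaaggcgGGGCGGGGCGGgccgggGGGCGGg
Both strands of the 250 bases before each RefSeq start site were searched. GGGCGG occurred 1 time before Serpinh1 and 6 times before Serpine2, of which 4 lie in the stretch shown and 2 of these overlap by a base. CCAAT occurred 3 times before Serpinf1. Among 32851 promoter windows of the same length, 32.7% held GGGCGG and 33.8% held CCAAT. The paired heat shock element letters GAANNTTC and TTCNNGAA, held by 6.69% and 7.17% of the windows, were not in the windows of these 3 genes, nor were CACGTG (6.02%) and TATAA (22.8%). The window of Serpine2 was rich in G and C (78.8%, with 34 CG pairs), that of Serpinh1 less so (63.6%, 11 pairs), and that of Serpinf1 (51.6%, 2 pairs) lay near the median of all windows in G and C (52.4%) and below it in CG pairs (6). The Serpinf1 stretch also falls in an exon of Gm12336, a long noncoding RNA on the same strand.

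Serpinh1 was the most abundant of the 5 transcripts per length. In NC its level per kilobase of longest transcript was 1632, against 1116 for Serpinb6a, 121 for Serpinf1, 73.1 for Serpine2 and 24.8 for Serpinb9. In NC the Serpinh1 value was 4328 in replicate 1 and 3096 in replicate 2. OICR gave the lowest values, 255 and 441, and the OICR mean of 348 ± 132 (SD, n = 2) was 9.38% of the NC mean of 3712 ± 871 (SD, n = 2). Bromosporine libraries held 769 and 759, which is 20.6% of the NC mean, and the difference between these libraries was small. Valproate libraries held 941 and 847 (24.1%), and DZNep libraries 1312 and 959 (30.6%). With UNC0379 Serpinh1 was at 1598 and 1738, a mean of 44.9% of NC, and neither value reached the lower NC library. IOX1 libraries, at 2194 and 2668 (65.5%), were closer to NC but also below both NC libraries. CPTH2 libraries were at 2642 and 3044, just below the lower NC value. Chaetocin (2548 and 3561), Garcinol (3352 and 3939) and MS023 (3661 and 5395) overlapped the NC range. MS023 replicate 2 held the highest Serpinh1 value of all 22 libraries. Thus 7 of 10 compounds had both libraries below both NC libraries, a separation found in 21.3% of all pairs of a gene and a compound among the 17275 genes tested. Because Serpinh1 was chosen for this, nothing was read from the count.

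From the lowest mean upwards the order was OICR, Bromosporine, Valproate, DZNep, UNC0379, IOX1, CPTH2, Chaetocin, Garcinol, NC and MS023. Each of the first 5 groups did not overlap with the next in this order, and each group from IOX1 upwards did. On the log2(value + 1) scale the difference from NC was -3.44 for OICR, -2.26 for Bromosporine, -2.03 for Valproate, -1.71 for DZNep, -1.13 for UNC0379, -0.60 for IOX1, -0.37 for CPTH2, -0.28 for Chaetocin, -0.01 for Garcinol and 0.28 for MS023. Replicate numbers differed in these differences. Against the NC library of the same number, OICR was lower by a log2 difference of -4.08 in replicate 1 and -2.81 in replicate 2, whereas DZNep gave -1.72 and -1.69. Set against the mean of the other groups in place of NC, the log2 difference was -2.63 for OICR, -1.33 for Bromosporine, -1.08 for Valproate, -0.72 for DZNep, -0.09 for UNC0379 and 1.46 for MS023, and it turned positive for IOX1 (0.50), CPTH2 (0.75), Chaetocin (0.85) and Garcinol (1.14). For Chaetocin, Garcinol and MS023 the sign differed between the numbers, with 0.20, 0.35 and 0.80 in replicate 2 and values below 0 in replicate 1.

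**Figure D1:**
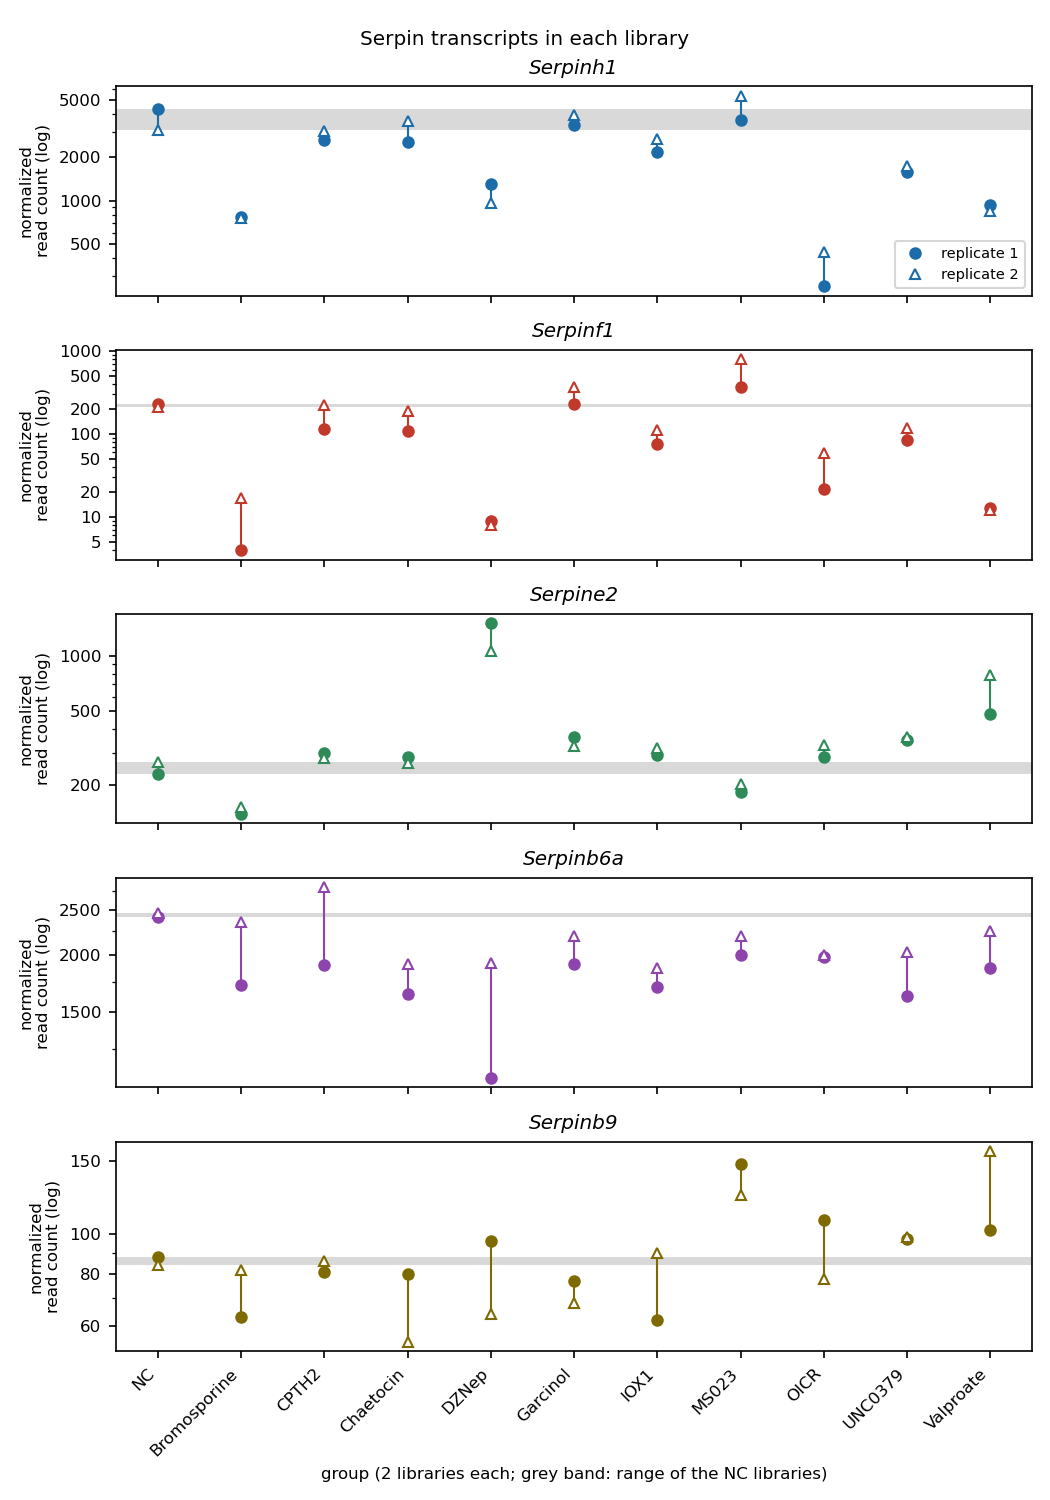
Normalized read count (y axis, log scale) of each of the 5 serpin genes in each library, by group (x axis), with circles for replicate 1, triangles for replicate 2 and a grey band for the range of the 2 NC libraries. Serpinh1 and Serpinf1 lie far below the band with OICR, Bromosporine, Valproate and DZNep, Serpine2 lies above it with DZNep and Valproate, and Serpinb6a and Serpinb9 stay within narrow ranges.

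Serpinf1 was much less abundant than Serpinh1 and varied more. Group means spanned 68.3-fold for Serpinf1, 13-fold for Serpinh1, 8.7-fold for Serpine2, 2.01-fold for Serpinb9 and 1.63-fold for Serpinb6a. In NC the Serpinf1 libraries were at 229 and 214. DZNep libraries were at 9 and 8, a mean of 8.5 ± 0.707 (SD, n = 2) and 3.84% of the NC mean of 221.5 ± 10.6 (SD, n = 2). Bromosporine libraries were at 4 and 17 (4.74%), and Valproate libraries at 13 and 12 (5.64%). The DZNep and Valproate values all lay between the 2 Bromosporine values. OICR, the compound with the lowest Serpinh1, left Serpinf1 at 22 and 59, a mean of 18.3% of NC. IOX1 (75 and 112, 42.2%) and UNC0379 (86 and 120, 46.5%) were intermediate, and Chaetocin (110 and 188) was still below both NC libraries. CPTH2 (115 and 225) overlapped NC. Serpinf1 was higher than both NC libraries with Garcinol, at 231 and 373, and with MS023, at 367 and 794. Such a separation was found upwards in 19.4% and downwards in 21.3% of all pairs of a gene and a compound. The MS023 mean was 262% of the NC mean.

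Serpinf1 ordered the groups as DZNep, Bromosporine, Valproate, OICR, IOX1, UNC0379, Chaetocin, CPTH2, NC, Garcinol and MS023. Only 3 of the 10 neighbouring pairs in this order did not overlap, namely Valproate and OICR, OICR and IOX1, and NC and Garcinol. On the log2(value + 1) scale the difference from NC was -4.55 for both DZNep and Bromosporine, -4.04 for Valproate, -2.58 for OICR, -1.26 for IOX1, -1.12 for UNC0379 and 1.28 for MS023. With a pseudocount of 10 these were -3.65 for DZNep, -3.57 for Bromosporine and -3.36 for Valproate. Set against the mean of the other groups, DZNep and Bromosporine were at -3.26, Valproate at -2.70 and OICR at -1.09, and the sign turned for IOX1 (0.36), UNC0379 (0.52), Chaetocin (1.07) and CPTH2 (1.25). Within replicate numbers, Bromosporine gave -5.52 and -3.58, OICR gave -3.32 and -1.84, and MS023 gave 0.68 and 1.89. DZNep (-4.52 and -4.58) and Valproate (-4.04 and -4.05) were nearly equal in both. Over the 11 group means of log2(value + 1), Serpinh1 and Serpinf1 had a Pearson correlation of 0.81. The 11 points come from the same libraries for both genes, and both genes were chosen for low values, so this is a description.

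**Figure D2:**
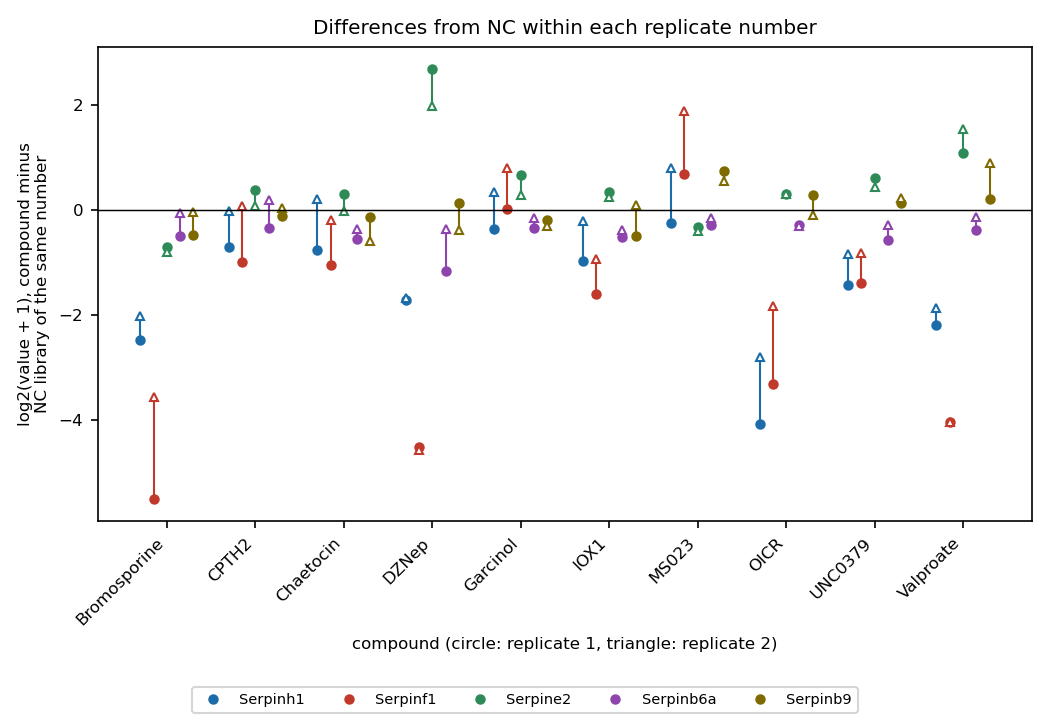
Difference in log2(value + 1) between each compound library and the NC library of the same replicate number (y axis), by compound (x axis), with a colour for each of the 5 genes, circles for replicate 1 and triangles for replicate 2. Serpinh1 and Serpinf1 are below 0 in both numbers with OICR, Bromosporine, Valproate and DZNep, while Serpine2 is above 0 in both with DZNep (2.70 and 1.98) and Valproate (1.08 and 1.55).

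The genes with the pattern most like that of Serpinh1 over the 11 group means, among the 12588 other genes above 0 in all libraries with a mean of at least 100, were Gm3373 (r = 0.955), Gstz1 (0.950), Bcam (0.937), Plekha1 (0.914) and Hyou1 (0.911). Gstz1 is an enzyme of tyrosine breakdown, Bcam a laminin-binding adhesion molecule and Hyou1 a chaperone of the endoplasmic reticulum. Hyou1 varied over a narrower range than Serpinh1, from 5398 with DZNep to 8000.5 with MS023 as group means. For Serpinf1 these were Fam129a (r = 0.978), Calml4 (0.967), C78283 (0.966), Gpt2 (0.956) and Hvcn1 (0.955). Gpt2 is the mitochondrial alanine transaminase and Hvcn1 a proton channel. Fam129a ran from 1210 with Bromosporine to 9227 with MS023.

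Serpine2 was the only 1 of the 3 tested members that was called with any compound. Calls required a limma p under 0.05 after Benjamini-Hochberg adjustment and a fold change over 2. Serpine2 was at 229 and 267 in NC. With DZNep it rose to 1492 and 1057, the highest values of all groups and 5.14 times the NC mean. The log2 change was 2.34 (SE 0.21), and the limma adjusted p was 1.06e-05. With Valproate it rose to 485 and 783, or 2.56 times the NC mean (log2 change 1.31, SE 0.21, limma adjusted p 0.00158). Of all genes tested, 5.27% were called up with DZNep and 2.73% with Valproate. Over all compounds 2.15% of the pairs of a gene and a compound were called, with as few as 0% for UNC0379, 0.00579% for CPTH2 and Garcinol, 0.0174% for Chaetocin and 0.116% for IOX1. Without Valproate replicate 2 the Valproate change was 0.97 and below 2-fold, and in fits restricted to NC and 1 compound both calls were lost (limma adjusted p of 0.0695 for DZNep and 0.203 for Valproate).

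Bromosporine had the lowest Serpine2 values, 140 and 153, and MS023 the next, 183 and 202, and both groups lay below both NC libraries. The Bromosporine change was -0.75 (SE 0.21) with a limma adjusted p of 0.0516, which misses both thresholds. Against the mean of all other groups in place of NC it was -1.28 with a limma adjusted p of 0.000185, and the Valproate change was 0.99, below 2-fold, so that its call was lost. With Garcinol (363 and 327) and UNC0379 (350 and 362) both libraries lay above both NC libraries, with log2 changes of 0.48 and 0.52 and limma adjusted p of 0.967 and 0.791. The values with CPTH2, IOX1 and OICR lay between 281 and 329, all above NC but close to it, and Chaetocin (283 and 264) overlapped NC. Of all pairs of a gene and a compound, 19.4% had both libraries above both NC libraries and 21.3% had both below. These comparisons share the NC libraries. A limma F test over the 11 groups, which asks whether any group differs, gave Serpine2 an adjusted p of 3.24e-05. Of all genes 29.7% passed this test. Genes whose group means followed Serpine2 most closely were Anxa8 (r = 0.975), Tek (0.972), Fez1 (0.969), Sord (0.959) and Ptp4a3 (0.957). Tek is the angiopoietin receptor and Sord is sorbitol dehydrogenase.

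Markers of other cell types moved with DZNep, Valproate and Bromosporine as well. With DZNep 3 of 13 tested endoderm markers rose (Pdgfra, Dab2 and Hnf4a) and 2 fell (Gata4 and Srgn), while 1 of 10 tested fibroblast markers rose (Thy1) and 2 fell (Vim and Fn1). With Valproate Pdgfra and Thy1 rose and Vim fell. Lum was called up with Valproate (197 and 331, from 0 in NC). It met the filter (at least 10 in at least 2 libraries) only through these Valproate libraries, so nothing was read from its call. With Bromosporine 1 endoderm marker fell, Srgn, named after its values were seen, from 235 and 159 to 87 and 43 (log2 change -1.64, limma adjusted p 0.0294). Of all genes, 5.27% were called up and 6.14% down with DZNep, 2.73% and 2.55% with Valproate, and 2.77% down with Bromosporine. Lum was also at 346 in CPTH2 replicate 1 and at 0 in the other CPTH2 library. The calls of Dab2 (1.36 to 1.73) and Fn1 (-1.26) with DZNep and of Lum with Valproate were each lost without any of the 4 libraries compared, and those of Vim without NC replicate 2 (-0.87 with DZNep and -0.94 with Valproate). The Vim calls were also lost without replicate 1 of the compound (-0.94 with DZNep and -0.80 with Valproate). The summed endoderm list was 56908 to 65382 in NC, 40198 to 43555 with DZNep, 58133 to 60236 with Valproate, 40468 to 47465 with Bromosporine and 47453 to 50161 with OICR. The summed fibroblast list, most of which is Fn1, was 234059 to 238268 in NC, 99607 to 101316 with DZNep, 131997 to 231072 with Valproate, 137145 to 233001 with Bromosporine and 236243 to 236508 with OICR. Under the common distribution the top ranks hold fixed values. Fn1 was at 221616 in both NC libraries, 92487 in both DZNep libraries, and 221616 and 123583 with Bromosporine. Its differences, and those of this sum, are thus largely steps between top ranks. Dcn was at 0 throughout. Of the 20 ESC markers, Utf1 rose with Bromosporine, DZNep, OICR and Valproate, Zfp42 and Tbx3 rose with DZNep, and Gdf3 fell with Valproate. In either direction 3.34%, 11.4%, 0.388% and 5.28% of all genes were called with Bromosporine, DZNep, OICR and Valproate. The Utf1 call with OICR and the Zfp42 call were lost without NC replicate 1 (1.29 and 0.98), and those of Tbx3 and Gdf3 without NC replicate 2 (0.98 and -0.81). Without OICR replicate 1 or 2 the Utf1 call with OICR was lost too (1.51 and 1.27). The Zfp42 call was also lost without DZNep replicate 1 (0.87). Gdf3 also lost its call without Valproate replicate 1 (-0.84) and after median-ratio rescaling (-0.97). The part of such cells in the serpin values was not tested.

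Serpinb6a and Serpinb9, the intracellular members, varied little. Serpinb6a was at 2425 and 2464 in NC, the highest group mean, and at 1079 and 1925 with DZNep, the lowest. In 9 of 10 compounds both libraries lay below both NC libraries, and CPTH2 (1899 and 2809) was the exception. This separation was found in 21.3% of all pairs of a gene and a compound, and the 9 comparisons share the NC libraries. No compound passed both thresholds for Serpinb6a in limma, with an unadjusted p under 0.05 in 1 comparison. That was DZNep, with a log2 change of -0.76 (SE 0.25) and a limma adjusted p of 0.0391 but a fold change under 2. Without DZNep replicate 2 the DZNep change was -1.18 and was called. The other changes lay between -0.46 (Chaetocin) and -0.08 (CPTH2), and neighbouring groups overlapped throughout the order of means. Replicate 2 was higher than replicate 1 in 11 of 11 groups. The limma F test gave an adjusted p of 0.414. That fit had no term for the replicate number, so a shift shared by the groups counted as spread.

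Serpinb9 was low, at 88 and 84 in NC. Its highest values were with MS023 (147 and 124) and Valproate (102 and 158), all above both NC libraries, and its lowest were with Chaetocin (80 and 55). Both libraries lay above both NC libraries in 19.4% of all pairs of a gene and a compound. Log2 changes ran from -0.37 with Chaetocin to 0.65 (SE 0.30) with MS023, for which the limma adjusted p was 0.325. For Valproate the change was 0.56, with a limma adjusted p of 0.268. No compound passed in limma, with 1 comparison (MS023) at an unadjusted p under 0.05, and the F test gave an adjusted p of 0.137. Nearest to Serpinb6a in pattern were Gtdc1 (r = 0.971), Ralgapb (0.947), Dlg1 (0.945), Slc30a9 (0.943) and Ppp3cb (0.941), and nearest to Serpinb9 were Padi4 (0.937), Vps11 (0.920), Prim2 (0.916), Gm20732 (0.894) and Sec24d (0.888). Ppp3cb is a catalytic subunit of calcineurin, and Sec24d, which was also on the collagen folding list, is a coat protein of vesicles that leave the endoplasmic reticulum.

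**Figure D3:**
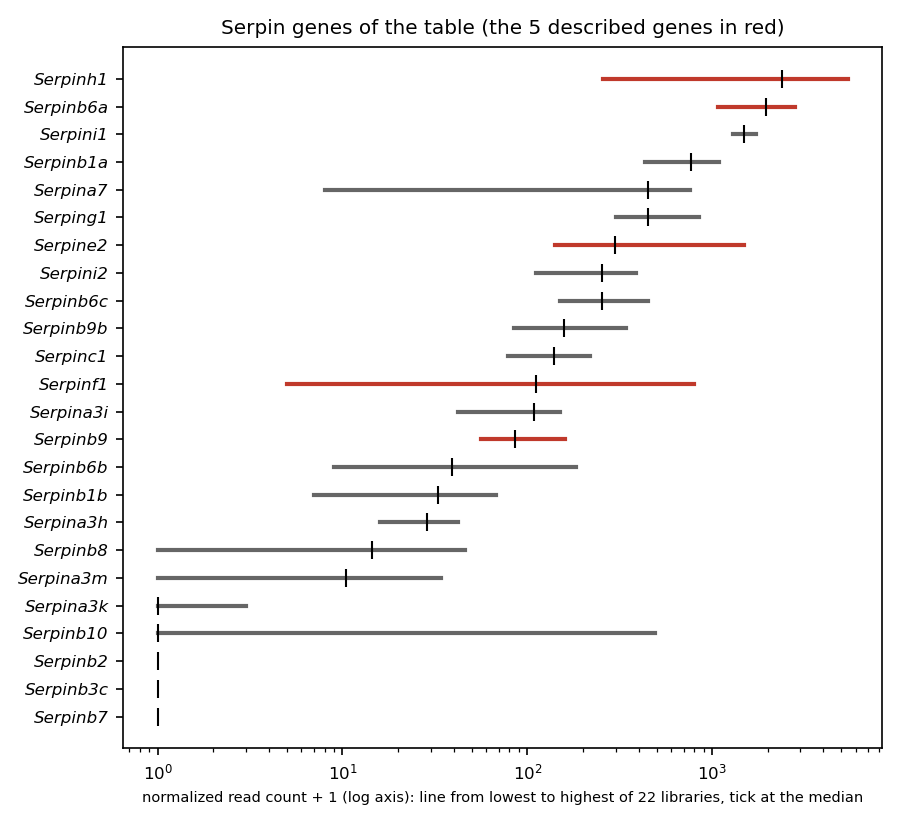
Range of the normalized read count plus 1 (x axis, log scale) over the 22 libraries for 24 of the 25 serpin genes of the table (y axis), with a tick at the median and the 5 described genes in red. Serpinh1, Serpinb6a and Serpini1 have the highest medians, and Serpinf1 and Serpina7 span the widest ranges among genes above 0 in all libraries.

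Of the other 20 serpin genes, 16 were tested and 3 (Serpinb2, Serpinb3c and Serpinb7) were listed at 0 in all libraries. Across all compounds 4 calls were made among these 16 genes. With DZNep 3 of 16 rose, where 5.27% of all genes were called up. Of these, Serping1, the C1 inhibitor of the complement system, went from 436 and 382 to 847 and 812 (log2 change 1.02, SE 0.16, limma adjusted p 0.000572). Serpinb1b went from 8 and 24 to 67 and 57 (2.07, SE 0.50, limma adjusted p 0.00847). Its unadjusted limma p was under 0.05 with 6 compounds, DZNep included. It was, for example, at 42 and 44 with Chaetocin and at 37 and 46 with UNC0379. All these comparisons share the low NC values. With Valproate 1 of 16 fell, where 2.55% of all genes were called down. This was Serpina3i, which went from 90 and 118 to 52 and 41 (-1.14, SE 0.30, limma adjusted p 0.0282). Of its 31-base stretches 26.7% also occur elsewhere, in Serpina3h among others, and reads may have been divided between these genes.

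The call of Serpinb1b was lost without NC replicate 1 (a change of 1.33). Serping1 fell below 2-fold without NC replicate 2 (0.93) or DZNep replicate 1 (0.99). The Serpina3i call was lost without any of the 4 libraries compared, with changes between -1.33 and -0.95. The abundant Serpini1, a neuronal inhibitor of tissue plasminogen activator, stayed between 1295 and 1731 in all libraries, and Serpinb1a between 431 and 1092. The median log2 change of the 16 genes was 0.35 with DZNep and 0.35 with Valproate, and -0.29 with Bromosporine, beside medians over all genes of -0.04, -0.02 and 0.01. Of the 19 tested serpins outside Serpinh1 and Serpinf1, 5 passed the F test (Serpine2, Serping1, Serpinb1b, Serpinb9b and Serpinb10), where 29.7% of all genes did. Serpinb10 met the filter (at least 10 in at least 2 libraries) only through UNC0379, where it was high (357 and 489). Nothing was read from its pass.

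Receptors and cofactors of serpins were examined as a list of 20 genes, of which 19 were tested. The list held 11 calls, all of them falls. Plxdc1 encodes a reported receptor for SERPINF1. It was at 1028 and 911 in NC, at 148 and 134 with Bromosporine, at 128 and 182 with DZNep, at 214 and 229 with Valproate and at 254 and 199 with OICR. The log2 changes were -2.77, -2.66, -2.12 and -2.10 (SE 0.17 each), with limma adjusted p between 2.45e-06 and 7.57e-05. With the other 6 compounds it was between 593 and 968 and was not called. These comparisons share the NC libraries with each other and with those of Serpinf1. In fits restricted to NC and 1 compound, the Plxdc1 call held with Bromosporine (limma adjusted p 0.0248) and not with the other 3.

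Lrp1, an endocytic receptor that clears complexes of serpins and proteases, fell with Bromosporine from 4876 and 3600 to 1004 and 1206 (log2 change -1.93, SE 0.21, limma adjusted p 0.000282). With DZNep it was at 8106 and 6902, a log2 change of 0.84 that did not reach 2-fold. The related receptors Vldlr and Lrp8 fell with DZNep, to 109 and 99 from 625 and 463 (log2 change -2.36, limma adjusted p 3.25e-05) and to 68 and 70 from 305 and 261 (log2 change -2.02, limma adjusted p 4.41e-05). Vldlr also fell with Valproate, to 245 and 127 (log2 change -1.60, limma adjusted p 0.00143). By compound, 6 of 19 fell with DZNep, where 6.14% of all genes were called down, 2 with Bromosporine (2.77%), 2 with Valproate (2.55%) and 1 with OICR (0.26%).

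SERPINH1 acts with enzymes and chaperones that fold and modify collagen, and 28 of 30 listed genes of this kind were tested. Calls were made for 5 with DZNep (3 up and 2 down), 4 with Valproate (1 up and 3 down), 2 with Bromosporine (both down) and 1 with OICR. Of all genes, 11.4%, 5.28%, 3.34% and 0.388% were called with these compounds. Fkbp10 encodes a prolyl isomerase that acts on procollagen with SERPINH1, and recessive loss of SERPINH1, SERPINF1 or FKBP10 is known to cause brittle bones. From 58 and 89 in NC it went to 15 and 22 with Bromosporine (log2 change -1.93, limma adjusted p 0.0137), to 12 and 33 with Valproate (-1.79, 0.0114) and to 483 and 573 with DZNep (2.85, 0.000253). Its direction with DZNep was thus opposite to that with Bromosporine and Valproate. With OICR it was at 36 and 45, a log2 change of -0.82 with a limma adjusted p of 0.497. The Bromosporine call was lost without NC replicate 2 (-1.62) or Bromosporine replicate 1 (-1.66), and the Valproate call without NC replicate 2 (-1.49) or Valproate replicate 1 (-1.10).

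Pcolce, which enhances removal of the procollagen C-terminal propeptide, fell with Bromosporine from 4181 and 5159 to 1243 and 1971 (log2 change -1.57, SE 0.20, limma adjusted p 0.000799). Valproate libraries held 2179 and 2591, and this log2 difference of -0.97 just missed 2-fold. P4ha2, a prolyl hydroxylase subunit, rose with DZNep from 92 and 81 to 305 and 204, and Loxl2, a lysyl oxidase, fell there from 103 and 61 to 28 and 17. The OICR call was P3h4, named after its values were seen, which went from 457 and 333 in NC to 183 and 177 (limma adjusted p 0.0433). The median log2 change of the 28 genes was -0.21 with OICR, -0.21 with Bromosporine, -0.24 with Valproate and -0.13 with DZNep, beside 0.01, 0.01, -0.02 and -0.04 over all genes.

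Among 24 tested collagen chains, 7 calls were made over all compounds. With DZNep 2 rose and 1 fell, where 5.27% of all genes were called up and 6.14% down. With Valproate 2 rose (2.73% of all genes) and with Bromosporine 1 fell (2.77%). With MS023 1 rose, where 0.973% of all genes were called (0.388% up). Col1a1 was low in NC, at 24 and 24. It fell to 7 and 6 with Bromosporine (log2 change -1.74, limma adjusted p 0.00931) and rose to 327 and 228 with DZNep (3.45, 1.79e-05). The Bromosporine call was lost without NC replicate 1 or Bromosporine replicate 2 (-1.74 and -1.64). Col2a1 rose with DZNep from 99 and 123 to 791 and 781 (log2 change 2.82, limma adjusted p 2.1e-05), and Col13a1 fell from 56 and 67 to 11 and 15 (-2.17, 0.00432). Col18a1, a basement membrane chain, rose with Valproate from 3185 and 3274 to 8389 and 8118 (1.35, 0.0018). The other 2 calls, named after their values were seen, were rises from 1 or 0 in NC, to 48 and 28 for Col6a1 with MS023 and to 23 and 33 for Col9a1 with Valproate, which was listed at 0 in both NC libraries. The median change of the 24 chains with DZNep was 1.02 on the log2 scale, beside -0.04 over all genes, although only 2 were called up and 1 down. Serpinh1 was at 30.6% of NC there, and a link between these values was not tested.

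**Figure D4:**
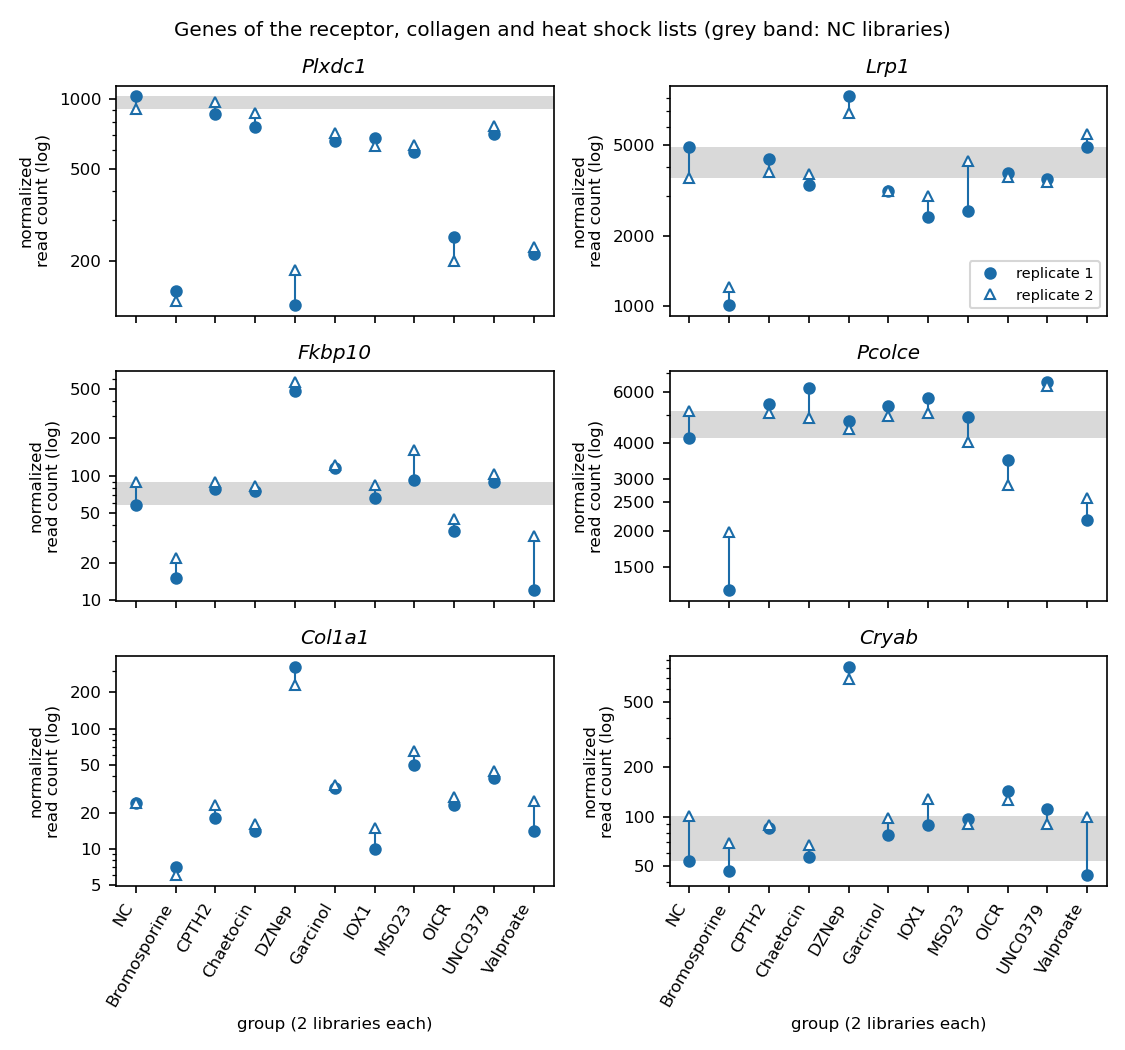
Normalized read count (y axis, log scale) in each library by group (x axis) for Plxdc1 and Lrp1 of the receptor list, Fkbp10, Pcolce and Col1a1 of the collagen lists and Cryab of the heat shock list, with circles for replicate 1, triangles for replicate 2 and a grey band for the NC range. Plxdc1 is low with Bromosporine, DZNep, OICR and Valproate, whereas Fkbp10 and Col1a1 are low with Bromosporine and high with DZNep.

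Serpinh1 is known as a target of heat shock factor, and 22 heat shock genes were tested beside it. Of these 2 were called, 1 up with DZNep and 1 up with Valproate. Among all genes 5.27% and 2.73% were called up with these compounds. Cryab, a small heat shock protein, rose with DZNep from 54 and 101 to 820 and 692 (log2 change 3.33, SE 0.37, limma adjusted p 4.47e-05). Hspa4l rose with Valproate from 122 and 155 to 347 and 341 (1.32, SE 0.25, limma adjusted p 0.0053), a call lost without NC replicate 1 (1.15). The median change of the 22 genes was 0.13 with OICR, 0.07 with Bromosporine, 0.00 with Valproate and 0.10 with DZNep, the compounds with the lowest Serpinh1 values.

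Of 38 listed proteases that serpins inhibit or are cut by, 20 were in the table and 19 were tested. With DZNep 3 rose and 3 fell, where 5.27% of all genes were called up and 6.14% down. With Valproate 3 rose and 1 fell (2.73% and 2.55% of all genes), and with MS023 1 fell (0.585%). F2, which encodes prothrombin, a target of SERPINE2, was at 141 and 120 in NC and fell to 38 and 39 with DZNep (log2 change -1.73, limma adjusted p 0.000219) and to 41 and 40 with Valproate (-1.66, 0.000848). It fell to 69 and 52 with MS023 (-1.11, 0.03), a call lost without any of the 4 libraries compared (changes of -1.31 to -0.91). Plat, the tissue plasminogen activator and another target of SERPINE2, rose from 21 and 25 to 126 and 87 with DZNep (2.14, 0.00252) and to 165 and 84 with Valproate (2.31, 0.00393). C1ra, a protease of the C1 complex that SERPING1 inhibits, rose with DZNep from 1 and 2 to 147 and 150 (5.93, 0.000288), and Casp8 fell from 114 and 106 to 40 and 47 (-1.32, 0.000213).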

How the data were processed

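RNA-seq was measured in 22 libraries of E14 cells. Deposited values are scores, normalized read counts that the authors rounded to whole numbers. Per the submitters' processing notes reads were processed with bcl2fastq, Bowtie2 2.2.5 and RSEM on mm10, and the methods of the study name EDASeq at its full setting without mentioning these compounds. They also state that libraries unlike their replicates were removed. DESeq2, named in those methods, takes raw counts and was therefore not applied. Full-quantile scaling hides depth and any change common to most genes. A second table with group means was not used. Values of 1 serpin gene are not reported here, though it is counted. Groups and replicate numbers came from the sample titles.

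Values were tested as log2(value + 1) with limma 3.58.1 in R 4.3.3 (11 group means, all 22 libraries, 11 residual degrees of freedom, trended variances, two-sided), for 17275 genes with at least 10 in at least 2 libraries. P-values were adjusted over all genes within each compound. Fold changes on this scale understate changes of low genes. The fit was tested on simulated data. Members, gene lists and tests were chosen with earlier results of these data known. Named genes were the members, other serpins called or with a mean of at least 500, for each list up to 4 called genes with the lowest adjusted p, and 5 genes nearest to each member in pattern. Alternatives were a pseudocount of 10, no filter, only the compound and NC libraries, a replicate block, the other groups as reference, median-ratio rescaling, adjustment over 10 contrasts together and leaving out each library. Other steps ran in Python 3.11.15 with numpy 2.4.6, and plots were drawn with matplotlib 3.10.9.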

Additional observations from a re-analysis of the deposited data

How the results depend on the processing

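In fits restricted to NC and 1 compound, calls fell to 0 for Serpine2, Serpinb6a and Serpinb9 (from 2) and for the heat shock list (from 2), to 1 for the other serpins (from 4), the collagen folding list (from 12), the protease list (from 11) and the receptor list (from 11), and to 2 for the collagen chains (from 7). That fit has fewer libraries to estimate the spread, and 47 of the 52 calls of single genes were lost in it. With the replicate number as a block, calls rose to 7 for the other serpins, 18 for the collagen chains and 17 for the proteases. In that fit 13 serpins passed the F test in place of 5, and none of the 52 calls was lost. Shares over all genes were taken in the main fit alone. Counts under this and the other alternatives thus have no baseline and are not read as traits of the serpins or lists. Differences between replicate 1 and 2 correlated between groups with a median r of 0.196, over 0.1 in 51 of 55 pairs of groups, with a lowest value of 0.0535, so the libraries of a number may share a batch that the labels do not give. Against the other groups in place of NC there were 16 calls for the collagen chains and 18 for the proteases, and without a filter 13 for the chains. The cause was not tested. The Serpinb6a change with CPTH2 reversed to 0.26 against the other groups. Leaving out 1 library gave 1 to 3 calls for the 3 tested members (lowest without Valproate replicate 2), 1 to 7 for the other serpins (lowest without NC replicate 1, 2 without NC replicate 2, highest without DZNep replicate 2), 7 to 12 for the collagen folding list and 4 to 8 for the chains (lowest without NC replicate 2 and NC replicate 1), 1 to 3 for the heat shock list (lowest without NC replicate 1), 3 to 6 for the F test (lowest without Chaetocin replicate 2 or any DZNep or UNC0379 library), and -0.36 to 0.20 for Serpinb6a with CPTH2. No sign changed among the 52 calls. Median-ratio rescaling, a pseudocount of 10 and adjustment over all contrasts moved no count past 1.5 times. Unknown depth limits the low Serpinf1 values.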

Other observations

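Serpina7, which encodes a thyroxine-binding globulin, fell into separate ranges that did not follow the compounds. It was between 7 and 10 in 8 libraries (NC, Chaetocin, CPTH2, DZNep, Garcinol and OICR replicate 2 and both Bromosporine libraries) and between 280 and 753 in the other 14. None of its 31-base stretches (0%) occur in other genes, and it was not called with any compound. Serpinb10 was listed at 0 in 19 libraries and was at 387 in DZNep replicate 1 and at 357 and 489 with UNC0379. These genes were picked after their values were seen.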
